A study of Mus musculus with 94 samples.

Results

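The probes described here were read from the tubular segments of mouse kidney sections, where on average they took a larger share of the counts in the cortex than in the medulla. They were selected for a level summed over both regions that stayed near the uninjured one after ischemia-reperfusion injury (IRI). They are 100 of the 20175 probes in the files. The study profiled formalin-fixed kidneys of male C57BL/6 mice with the GeoMx digital spatial profiler and the Mouse Whole Transcriptome Atlas, which reads each transcript through a short photocleavable tag that is released from a chosen area and sequenced. Areas were segmented by antibody into tubular cells (PanCK and CD10, here PanCK) and macrophages (IBA1), giving 48 PanCK and 46 IBA1 segments from 14 sections. The 7 groups had 2 sections each. The uninjured control (CTRL) kidneys came from the side opposite to the injury according to the labels, and the study's methods also mention healthy mice. The other groups had unilateral IRI and were collected on day 1, 7 or 14. Before IRI they were given either vehicle (DMSO, V) or entospletinib (E), an inhibitor of spleen tyrosine kinase (SYK). Per the study's methods, entospletinib injections were repeated after IRI in the groups collected later. The groups collected earliest had no injection after IRI. The injured groups are written I1V, I1E, I7V, I7E, I14V and I14E. The series text gives 2 mice per condition and time, so the section was taken as the replicate. The areas were placed by hand in the cortex and the medulla, with glomeruli avoided, and their exact zone within the cortex or the medulla is not given in the sources used here. Sections of the control, day 1 and day 7 groups had 1 medullary and 2 cortical areas, and day 14 sections had 2 of each.

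The cortex of the kidney holds mostly proximal tubules, which reclaim most of the filtered solutes and depend on oxidative metabolism, together with distal convoluted tubules and cortical collecting ducts. The outer medulla holds the straight end of the proximal tubule and the thick ascending limb, and the inner medulla the thin limbs and collecting ducts. Ischemia injures the straight proximal tubule at the border of cortex and medulla most, and injured proximal cells lose many of their transport and metabolic transcripts. Transcripts that favor the cortex are therefore often those that fall with injury, and those described here were selected for not doing so in the summed tubular counts. The files name a probe only by its identifier and no table used here pairs identifiers with genes, so no gene, cell type or sequence is given, and the label of cortical tubule could not be checked against markers.

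The members were selected on measured values, which are given here as a description without a test. Counts of the areas of a section were summed per stain and region and scaled to the total of the sum as CPM (counts scaled to a common library total), and differences were taken on log2(CPM + 1), a scale that understates the change of low probes. The first value was the cortical lean, the PanCK cortex minus the PanCK medulla averaged over all 14 sections, which had to reach 0.5. The second was the change from control to vehicle in the PanCK sums over both regions, which had to stay within 0.5 in either direction on days 1, 7 and 14. The third was the IBA1 minus the PanCK level in the 4 vehicle sections of days 7 and 14, which had to stay under 1. A total of 491 probes had a lean of at least 0.5, and 488 of these met the limit on IBA1, so the third value removed only 3. The limits on change removed 380 of the 488, since 320 were lower by at least 0.5 on day 14, 189 on day 1 and 184 on day 7, against 27, 23 and 34 that were higher by as much. That left 108 probes, of which the 100 with the highest lean were taken. The last one taken had a lean of 0.519 and the first one left out 0.516. The largest change of a member in either direction was 0.493, and the smallest among the cortex-leaning probes that missed this limit was 0.501.

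Among the members the cortical lean ran from 0.52 to 2.54 on the log2 scale with a median of 0.69, against a median of -0.05 over all probes. It was at least 1 in 17 members and under 0.75 in 58, so most members favored the cortex only moderately. The median change from control in the summed regions was -0.16 on day 1, -0.02 on day 7 and -0.21 on day 14. The members were not evenly spread around 0, since 77 were below control on day 1, 55 on day 7 and 70 on day 14. The IBA1 minus PanCK difference was below 0 in 88 members and at most -1 in 14. In the PanCK sums the mean level over sections ran from 11.0 to 1656 CPM with a median of 63.9 CPM, and the median over all probes was 24.9 CPM. Most members were thus well above the typical probe, and 64 of the 100 lay above the upper quartile of all probes, 43.3 CPM, while 1 lay below the lower quartile. These are levels of probes, whose capture differs, and are not levels per transcript length.

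The depth of the sections set how well each stain could be read. PanCK sums held 9404235 to 25729550 counts per section, and the lowest count of a member in a regional PanCK sum was 6. IBA1 sums held 117693 to 2773456 counts, and 16 members had no count in the medullary IBA1 sum of I7E section 2, where 41102 counts in all allow up to 73.0 CPM behind a count of 0. Intervals and limits of this kind cover counting error only. Medullary sums of 2 sections stood apart. In control section 2 and I7E section 2 the members took 12876 and 16704 CPM of the medullary PanCK counts, close to the 14294 and 18237 CPM of the cortical counts in the same sections, whereas the other 12 medullary sums held 4528 to 9985 CPM. In these 2 sections the cortex and the medulla differed little over all probes as well: the SD over probes of the cortex minus medulla difference was 0.18 and 0.22, against 0.30 to 0.62 in the other sections. Control section 2 enters every comparison with control. Values without it are given for the fits over both regions, the day 1 medullary difference and the region by injury term. Other comparisons with control within 1 region were not recomputed without it.

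RTS0061507 had the highest lean of all members (2.54) and a mean PanCK level of 757 CPM, rank 69 among all probes. In the cortex it read 793 and 661 CPM in the control sections, 459 and 800 in I1V, 543 and 738 in I1E, 482 and 1480 in I7V, 1137 and 2201 in I7E, 823 and 673 in I14V, and 1007 and 2210 in I14E. In the medulla it read 38.2 and 544 CPM in the control sections, 22.5 and 48.6 in I1V, 144 and 704 in I1E, 139 and 239 in I7V, 29.8 and 2527 in I7E, 27.8 and 192 in I14V, and 60.7 and 1542 in I14E. The cortex was above the medulla in 13 of 14 sections, the exception being I7E section 2, and the medullary values of the 2 sections of a group were often far apart. Its summed-region changes of 0.05, 0.31 and -0.33 on days 1, 7 and 14 thus average over sections that were far apart. RTS0068416, second in lean (1.94), was far steadier in the cortex, from 83.7 CPM in I1V section 2 to 144 CPM in I7E section 2. Its medullary level was 16.8 and 84.3 CPM in the control sections and between 13.1 and 108 CPM elsewhere, and it stayed below the cortical level in all 14 sections.

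**Figure D1:**
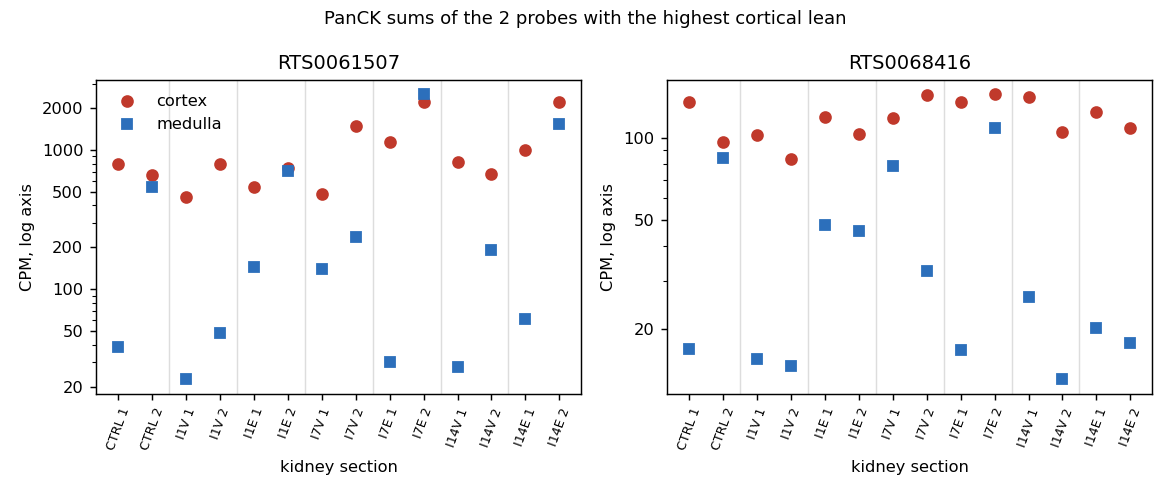
Level in CPM (log axis) of RTS0061507 and RTS0068416 in the PanCK cortical (red circles) and medullary (blue squares) sums of each section, with vertical lines between groups. Cortical values lie in a narrow band for RTS0068416 (83.7 to 144 CPM), and the medullary values of control section 2 and I7E section 2 come close to or above the cortical ones.

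The lean was present in every group. The median over members of cortex minus medulla was above 0 in all 14 sections, with a range of 0.17 to 1.16, and between 85 and 100 members were higher in the cortex in any one section. It was 1.07 and 0.17 in the control sections, 1.07 and 0.76 in I1V, 0.66 and 0.59 in I1E, 0.33 and 0.94 in I7V, 1.16 and 0.35 in I7E, 0.74 and 0.44 in I14V, and 0.99 and 1.03 in I14E. The 2 sections of a group were close in I1E and I14E and far apart in the controls, I7V and I7E, and the control sections spanned nearly the whole range. A total of 56 members were higher in the cortex in all 14 sections, 35 in 13, 7 in 12 and 2 in 11. The 2 cortical areas of a section differed less: the median absolute difference of a member between them was 0.09 to 0.21, below the median lean of that section in all 14 sections. As the lean chose the members, these counts describe how evenly it was spread and were not tested.

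**Figure D2:**
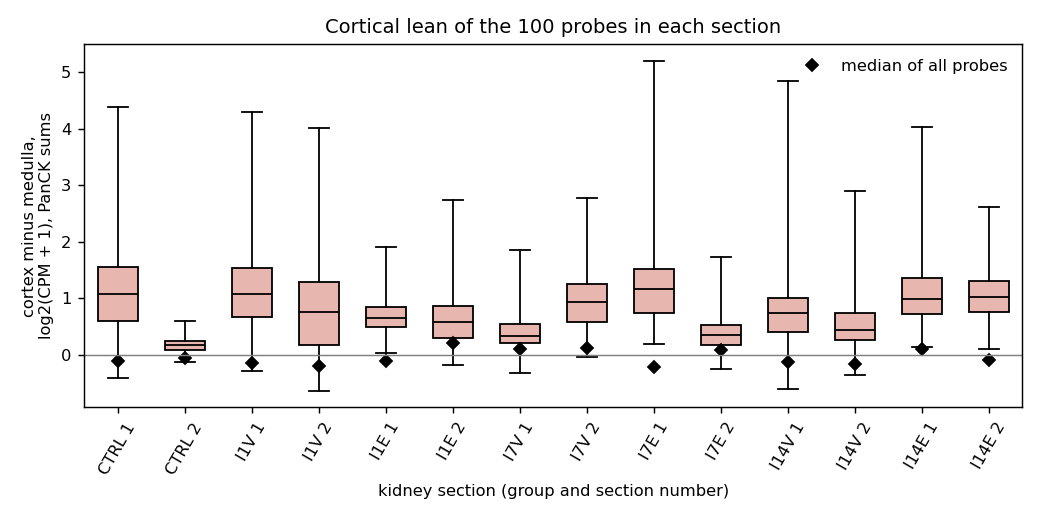
PanCK cortex minus medulla on the log2(CPM + 1) scale for the 100 members in each of the 14 sections, with boxes for the quartiles, lines for the medians and whiskers from the lowest to the highest member. Diamonds mark the median of all probes, which stays between -0.21 and 0.20, and the box of control section 2 is the closest to 0 with a median of 0.17.

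The limits on change were set on sums over both regions, so a member could keep its sum while its regions moved. In the cortex alone the vehicle minus control difference had a median of -0.30 on day 1, -0.11 on day 7 and -0.12 on day 14. It stayed within 0.5 for 81, 100 and 88 members, and the shares over all probes were 94.5%, 85.7% and 78.0%. Cortical levels were thus close to control on day 7, and on day 1 19 members were lower by at least 0.5 and none higher. Beside these, 2.29% of all probes were lower and 3.18% higher by as much on day 1. In the medulla alone the day 1 difference was larger, with a median of -0.61 against 0.21 over all probes. A total of 57 members were lower there by at least 0.5, 28 of them by at least 1, 2 were higher by at least 0.5, and 41 stayed within 0.5. The share of all probes lower by at least 0.5 was 8.14%. Both I1V medullary sums lay below both control sums for 44 members and above both for 2, against 11.5% and 33.1% of all probes. On days 7 and 14 the medullary difference had a median of -0.11 on both days, with members on both sides. On day 7, 16 members were lower and 7 higher by at least 0.5 and 77 stayed within it, against 5.64%, 10.4% and 84.0% of all probes. On day 14 the numbers were 15, 10 and 75, against 9.20%, 17.9% and 72.9%. The sections and the contrast are those of the selection, so these counts are a description, and in segment counts fewer cells of a type and less RNA per cell cannot be told apart.

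The medullary difference on day 1 depended on control section 2. With that section left out, 33 members were lower by at least 0.5 and 23 higher, and the median was -0.08 against 0.42 over all probes. With control section 1 left out instead, 80 were lower and none higher, and the median was -0.97. Leaving out either I1V section gave 52 or 58 lower. The depth moved with the difference as well: the I1V medullary sums held 1863750 and 1235205 counts, against 4821455 and 6500412 in the controls. The share of PanCK counts from the cortex was 81.3% and 88.5% in I1V and 48.7% and 62.7% in the controls, and between 36.5% and 72.1% in the other sections (95% Wilson intervals no wider than 0.272 percentage points on either side over both stains). The summed level of I1V was thus mostly a cortical level. When the CPM of both regions was weighted equally, 61 members stayed within 0.5 on day 1, and 39 were lower by at least 0.5. The shares over all probes were 85.4% and 5.10%. The part of area placement, depth and mixing in the day 1 values was not tested.

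**Figure D3:**
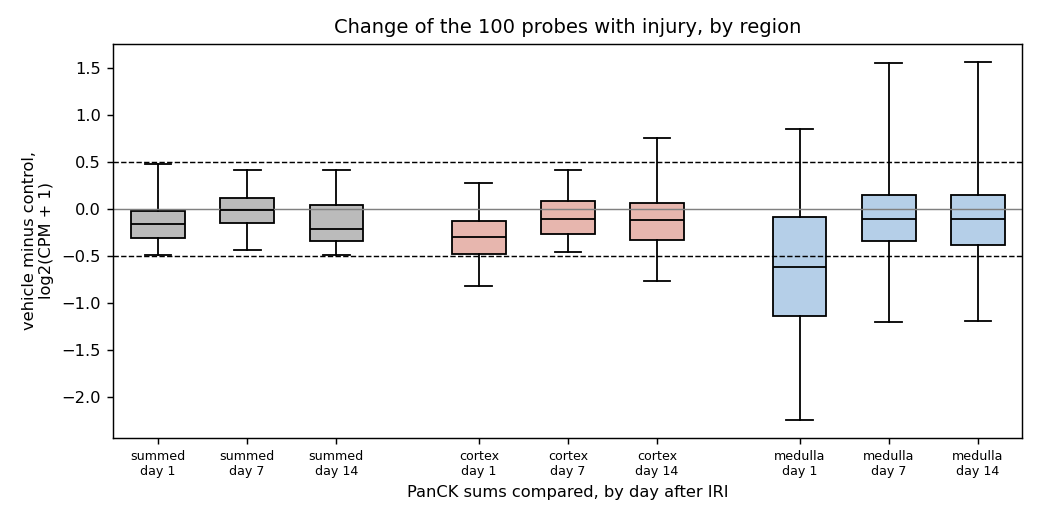
Vehicle minus control on the log2(CPM + 1) scale for the 100 members in the PanCK sums over both regions (grey), the cortex (red) and the medulla (blue) on days 1, 7 and 14, with boxes for the quartiles and whiskers from the lowest to the highest member. Dashed lines mark the 0.5 limits of the selection, which apply to the grey boxes, and the medulla on day 1 has its median at -0.61 and its lowest member at -2.24.

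The difference between the regions was also fitted across all probes as a region by injury term within sections, with edgeR's quasi-likelihood test at an adjusted p below 0.05. The fit used the same PanCK sums of control and vehicle that chose the members through their lean and their change, so the counts are a description of the members and not an independent test. On day 1, 8 members had an adjusted p below 0.05, all with a more negative change in the medulla than in the cortex, beside 1.24% of all probes in that direction and 1.15% in the other. Their vehicle minus control difference was between -0.19 and 0.28 in the cortex and between -1.58 and -0.79 in the medulla. The direction over all members depended on control section 2. The median term was -0.39 with all sections, against 0.03 over all probes, and it turned to 0.18 with 57 members above 0 without control section 2, and to -0.81 without control section 1. Without I1V section 1 or 2 the median term was -0.24 or -0.54, against 0.03 over all probes in both. On days 7 and 14 no member passed in edgeR or in DESeq2, beside 0.0% and 0.243% of all probes. At an unadjusted p below 0.05 there were 4 and 12 members, beside 10.3% and 6.21% of all probes. Without control section 1 or 2 the median term was -0.44 or 0.56 on day 7, against -0.15 or -0.17 over all probes. On day 14 it was -0.48 or 0.47, against 0.03 or 0.02.

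Entospletinib was compared with vehicle in the PanCK sums over both regions, with a call at an adjusted p below 0.05 and an absolute log2 fold change above 1. On day 1 no member was called in edgeR or DESeq2 (0.0% of all probes called), and none had an unadjusted p below 0.05 (0.496% of all probes). The largest member fold changes were -0.32 and 0.28. On day 7 no member was called by either tool, beside 0.664% of all probes, and 13 had an unadjusted p below 0.05, beside 8.94%. The median log2 fold change was 0.29, with 91 members above 0, against a median of 0.12 over all probes. Without I7E section 2 the median was 0.07, with 66 members above 0, against 0.17 over all probes. On day 14, 1 member was called, higher, and none lower, where 2.97% of all probes were called higher and 3.18% lower. The median over the members was 0.24 and that over all probes 0.33. Leaving out I14V section 1 or 2 gave a median over the members of 0.35 or 0.09, against 0.48 or 0.16 over all probes. Leaving out I14E section 1 or 2 gave 0.32 or 0.12, against 0.24 or 0.39. The selection left out probes whose vehicle sums differed from control by at least 0.5, and the same vehicle sums enter this comparison. The share of members called, below that of all probes on day 14, is therefore a description and not an independent test.

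The member called on day 14 was RTS0063949, a probe of low level with a mean of 25.2 CPM. Its PanCK sums read 18.8 and 11.7 CPM in I14V and 24.6 and 35.4 CPM in I14E, and 19.0 and 22.8 CPM in the controls. The groups did not overlap, and both entospletinib sums were also above both control sums. The log2 fold change over vehicle was 1.28 ± 0.27 (SE, 2 sections per group, adjusted p = 0.00746). In the cortex it read 20.1 and 9.8 CPM with vehicle and 32.2 and 58.3 CPM with entospletinib, and in the medulla 17.4 and 12.8 against 19.7 and 14.1 CPM. The medulla alone gave a log2 fold change of 0.51 and no call. The call was lost without I14V section 2 (0.97) and without I14E section 2 (0.91). The member with the smallest p among those lower was RTS0073436, with 124 and 95.5 CPM in I14V and 49.6 and 56.6 CPM in I14E. The controls read 63.8 and 105 CPM, so both entospletinib sums were below both controls. Its log2 fold change was -0.77 ± 0.21 (adjusted p = 0.027) and did not reach the fold limit. The difference lay in the medulla, where I14V read 150 and 103 CPM and I14E 29.0 and 33.3 CPM, a log2 fold change of -1.67. In the cortex vehicle read 98.8 and 81.8 CPM and entospletinib 81.9 and 81.5 CPM, a log2 fold change of 0.03 after normalization.

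Regions taken separately gave a few more calls. In the medulla alone 6 members were called higher with entospletinib than with vehicle on day 1, where 0.555% of all probes were called higher. In the same region 1 was called higher on day 7 (0.307% of all probes), and on day 14 there were 2 higher (4.1%) and 2 lower (4.22%). In the cortex alone there was 1 call, higher, on day 14 (0.342%), and none in edgeR on days 1 and 7, with 0 and 13 members at an unadjusted p below 0.05, beside 0.144% and 4.57% of all probes. The day 1 medullary calls rest on the I1V medullary sums of low depth described above. All of these regional PanCK sums also entered the lean that chose the members, so the counts by region are a description. The effect of entospletinib was not compared between regions or between days by a test.

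Against uninjured control, the entospletinib sections had not been used for the limits on change, but the control sums had. The regional sums of both also entered the lean, so the counts here are a description of selected members. No member was called in the summed PanCK counts on day 1, 7 or 14 by edgeR or DESeq2, and none by edgeR without control section 2. The calls over all probes were 0.124%, 0.0% and 0.0%, so the absence of calls was shared by nearly all probes. At an unadjusted p below 0.05 there were 19, 4 and 14 members, beside 7.17%, 2.89% and 2.01% of all probes. On the log2(CPM + 1) scale the entospletinib minus control difference stayed within 0.5 for 88 members on day 1, 95 on day 7 and 87 on day 14, and within it for 94.3%, 98.0% and 97.8% of all probes. The members that left the limit were 12 lower on day 1, 5 higher on day 7, and 11 lower with 2 higher on day 14. The shares of all probes in these directions were 2.84%, 1.22%, 0.867% and 1.37%. In the medulla on day 14 the number lower by at least 0.5 was 37, against 2.04% of all probes. In the cortex on that day it was 3, against 0.511%. In the medulla on day 1, where vehicle had 57 members lower by at least 0.5, entospletinib had 19 and a median of -0.20, against 3.95% and a median of -0.02 over all probes. Both rest on the same 2 control sections and are set side by side without a test. The entospletinib counts by region were not recomputed without control section 2.

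The IBA1 segments lie in the same areas as the PanCK segments whose lean chose the members, and their values had not been used by region. Tubular RNA in the IBA1 counts could not be measured, so the test here is not independent of the selection. The members favored the cortex in IBA1 as well. The mean cortex minus medulla difference over sections was above 0 for 89 members, with a median of 0.57, and for 47.9% of all probes, with a median of -0.02. Low counts left 90 members in the test with section as a block. Of these 88 had a log2 fold change above 0, with a median of 0.48, and 7 were called higher in the cortex and none lower, where 0.847% of 11331 probes were called higher. With no limit on fold, 41 members passed, all as higher, beside 3.76% of all probes. RTS0061507 had a log2 fold change of 2.30 ± 0.40 (adjusted p = 0.0033) and RTS0068416 1.24 ± 0.19 (adjusted p = 1.36e-05). Leaving out either I1V section gave 4 calls, and leaving out any other gave 5 to 8. Over the 100 members the lean in IBA1 and in PanCK had a Pearson's r of 0.66 and a Spearman's rho of 0.49, a description across probes that share areas, slides and sequencing.

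**Figure D4:**
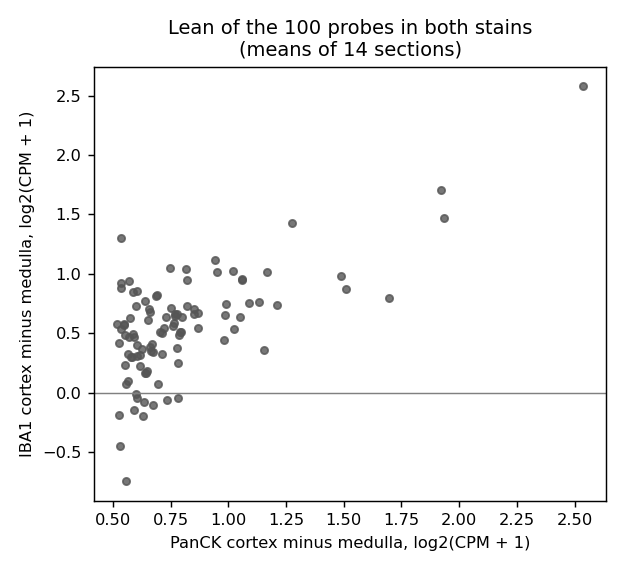
Mean cortex minus medulla over 14 sections on the log2(CPM + 1) scale in PanCK (horizontal) and IBA1 (vertical) sums, 1 point per member. The 3 members with the highest PanCK lean also have the highest IBA1 lean, which reaches 2.58, and 11 members lie at or below 0 in IBA1.

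In the 10 sections that the selection had not used for it, the members were mostly lower in IBA1 than in PanCK. The median log2 fold change was -0.31, against -0.09 over all probes, and 14 members were above 0. Only RTS0069587 was called, lower in IBA1 with a log2 fold change of -1.01 ± 0.11, where 0.159% of all probes were called lower. This probe was named after its values were seen. It read 168 to 327 CPM in the PanCK sums and 78.1 to 209 CPM in the IBA1 sums of those sections, and was lower in IBA1 in 10 of 10. With no limit on fold, 46 members passed as lower and 3 as higher, beside 11.3% and 7.11% of all probes. The call at the fold limit was near its edge and was lost under TMM normalization, in DESeq2, without the section block, and without control section 1 or 2, I1V section 1, I7E section 2 or I14E section 1.

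In the IBA1 sums of vehicle against control the median log2 fold change was -0.36 on day 1, -0.34 on day 7 and -0.45 on day 14, with 27, 19 and 24 members above 0, and over all probes it was -0.05, 0.02 and -0.08. Without control section 2 the members' medians were -0.06, -0.25 and -0.25, with 47, 38 and 37 members above 0. Calls were all lower: 1 on day 1, 3 on day 7 and 14 on day 14, beside 0.237%, 1.81% and 3.39% of 18541 probes called lower. The vehicle sums of days 7 and 14 entered the limit on IBA1, which removed only 3 probes. The member called on day 1 was RTS0078225, named after its values were seen, with 169 and 178 CPM in the controls and 77.9 and 59.6 CPM in I1V (log2 fold change -1.24 ± 0.31, adjusted p = 0.0417). The 14 members called on day 14 had a median of 90.9 and 97.3 CPM in the controls, 45.3 and 33.8 CPM in I14V and 64.1 and 73.6 CPM in I14E. In the PanCK sums the same 14 had medians of 99.6 and 123 CPM in the controls and 97.2 and 89.2 CPM in I14V, a difference that the selection had limited. Most of the IBA1 calls were lost without control section 2, where the medians over all probes were -0.01, 0.02 and -0.04. Without control section 1 the members' medians were -0.44, -0.42 and -0.56, against -0.004, 0.03 and -0.04 over all probes. Leaving out I14V section 1 or 2 gave -0.52 or -0.44 on day 14, against -0.22 or -0.02. The calls of days 1 and 7 were also lost without either vehicle section. With all sections, the cortex alone gave 0, 0 and 6 calls of 95 members tested. The medulla alone gave 6, 2 and 10 of 73, and all of these were lower. The calls by region were not recomputed without control section 2. The shares of all probes called lower were 2.51% in the cortex on day 14 and 1.92%, 1.97% and 4.73% in the medulla.

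Most members had a higher IBA1 level with entospletinib than with vehicle on days 7 and 14. The vehicle sums of both days had also entered the limit on IBA1 in the selection. On day 7, 15 members were called higher and none lower, where 2.56% of all probes were called higher and 2.38% lower. The median log2 fold change was 0.70, with 96 members above 0, against 0.05 over all probes. The called members had a median of 67.1 and 64.5 CPM in I7V, 148 and 144 CPM in I7E, and 94.1 and 124 CPM in the controls. Both I7E sums were thus above the vehicle and the control sums for the median called member, while their PanCK medians were 126 and 139 CPM in I7V and 140 and 150 CPM in I7E. RTS0068416 was among them, with 33.5 and 38.6 CPM in I7V and 83.6 and 76.5 CPM in I7E (log2 fold change 1.25 ± 0.29, adjusted p = 0.00496). On day 14, 5 members were called higher and none lower, where 2.52% of all probes were called higher. The log2 fold changes had a median of 0.46, and 75 members were above 0. Without I14E section 2 the median was 0.24, against 0.11 over all probes, and calls went both ways. On day 1 there was no call in edgeR or DESeq2, beside 0.0% of all probes, and 9 members had an unadjusted p below 0.05, beside 4.76%. The median was 0.28. The difference in effect between days was not tested.

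Several values moved with the day 7 difference. I7E section 2 held 117693 IBA1 counts in all, and the 15 called members had a median of 17 counts there. Without it the members' median was 0.77, against 0.08 over all probes. Without I7E section 1, which leaves the shallow section alone, the median was 0.45, against -0.15. The members' calls were then lost, and those over all probes fell as well. Without I7V section 1 or 2 the median was 0.65 or 0.72, against 0.12 or -0.02 over all probes. The cortex gave 76.3% and 65.1% of the IBA1 counts in I7E and 54.5% and 57.5% in I7V. In the cortex alone 17 of 95 members tested were called higher, where 3.47% of all probes were, and the median log2 fold change was again 0.70. In the medulla alone none was called in edgeR, 10 of 73 members tested had an unadjusted p below 0.05, beside 17.4% of all probes, and the I7E medullary sums held 150398 and 41102 counts. On day 14 the cortex alone gave 10 calls of 95 tested, all higher, beside 3.42% of all probes. The medulla alone gave 3 higher and 1 lower of 73 tested, beside 3.09% and 2.03%. Over both regions, leaving out any 1 section of that day gave medians of 0.24 to 0.46, against -0.07 to 0.17 over all probes. The vehicle sums are shared by the comparisons with control and with entospletinib, so a low vehicle value enters both with opposite signs. The members took 8617 and 11793 CPM of the IBA1 counts in the controls, 7587 and 8846 in I7V and 13836 and 13085 in I7E, and 7585 and 7393 in I14V against 8391 and 11681 in I14E. Macrophage and tubular segments adjoin within an area, and the part of tubular RNA in the IBA1 counts could not be measured without gene names and was not tested.

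**Figure D5:**
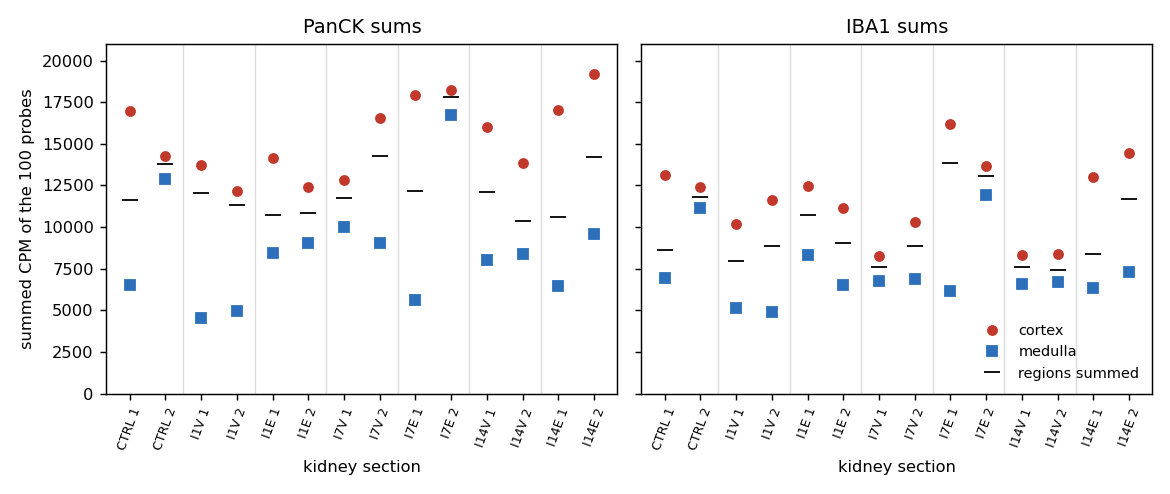
Summed CPM of the 100 members in the PanCK (left) and IBA1 (right) sums of each section, for the cortex (red circles), the medulla (blue squares) and both regions (black bars), with both axes starting at 0. In IBA1 both vehicle sections of days 7 and 14 lie between 7393 and 8846 CPM, and the I7E sections at 13085 and 13836 CPM.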

How the data were processed

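Per the file headers and labels, the authors sequenced the released tags and collapsed reads to unique molecules with the GeoMx NGS Pipeline. The deposited values are counts per probe and segment, with no filter on segments or probes and no normalization. The headers name pipeline version 3.1.1.5, and the labels and series text name other versions. The study later removed low segments and probes and ran DESeq2 with each area as a replicate. Here the deposited counts of all 94 segments were summed per section, stain and region (second tubular segments of an area included), and a probe absent from a file was counted as 0. Tests used edgeR 4.0.16 in R 4.3.3 (quasi-likelihood with robust fit, upper quartile normalization, filterByExpr with a minimum count of 10), over all probes that passed, with Benjamini-Hochberg adjustment. All 14 sums of a stain shared 1 estimate of spread. A call needed an adjusted p below 0.05 and an absolute log2 fold change above 1 (no fold limit for region by injury). All 100 members passed the filter in PanCK and in IBA1 sums, and 90 in IBA1 cortex against medulla. In IBA1 sums of 1 region, 95 passed in the cortex and 73 in the medulla. Scripts were tested on simulated data. Alternatives were TMM factors, DESeq2 1.42.0, no filter, adjusted p alone, single regions, a replicate block and leaving out each section. The members and lists were chosen with earlier results of these data known. Named probes were the 2 members with the highest lean and, in PanCK on day 14 with entospletinib against vehicle, the member with the smallest p in each direction. Single called members outside this rule were also named.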

Additional observations from a re-analysis of the deposited data

Results flagged for a closer look

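The effect of injury differed between the regions on day 1 for 8 members in the fitted region by injury term, all with a more negative change in the medulla than in the cortex. The PanCK sums behind this term are those that chose the members, so the count is not an independent test. Without control section 2, whose medullary sum was close to its cortical sum for these probes, the members' median term turned from -0.39 to 0.18. Over all probes it was 0.02 without that section. The groups had 2 sections each, too few to look for single sections far from the others of their group.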

How the results depend on the processing

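Of 187 recomputed counts of called members over 17 comparisons, 135 stayed within 1.5 times the reported count and 52 did not. The 17 include comparisons with no member called, where a recomputed 0 counts among the 135. With medullary areas alone, entospletinib against vehicle in PanCK gave 6 calls on day 1, 1 on day 7 and 4 on day 14, and in IBA1 it gave 0 on day 7. IBA1 vehicle against control gave 6 on day 1 in the medulla. With cortical areas alone IBA1 vehicle against control gave 0, 0 and 6 on days 1, 7 and 14, and entospletinib against vehicle 10 on day 14. With adjusted p alone there were 4 calls in PanCK and 9 in IBA1 for entospletinib on day 14 (19.2% and 5.28% of all probes), 41 for IBA1 cortex against medulla and 49 for IBA1 against PanCK. DESeq2 gave 2 for PanCK entospletinib on day 14, 1 and 9 for IBA1 vehicle against control on days 7 and 14, and 0 for IBA1 against PanCK. TMM factors gave 0 for IBA1 vehicle against control on day 1 and 0 for IBA1 against PanCK, and no filter gave 6 for IBA1 vehicle against control on day 7. The counts with DESeq2, TMM factors and no filter are printed without shares over all probes, so they show only how the members' calls moved. The causes were not tested. RTS0073436 turned to 0.028 in the cortex alone, with -1.67 in the medulla, and with DESeq2 it reached -1.03.

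Leaving out 1 section gave members' medians of 0.09 to 0.35 for PanCK entospletinib against vehicle on day 14. Over all probes the medians were 0.16 to 0.48. The ranges that follow are counts of calls. For IBA1 the ranges were 0 to 20 and 3 to 7 for entospletinib against vehicle on days 7 and 14 (without I14E section 2, 3 of the 5 were lower), 0, 0 to 2 and 1 to 13 for vehicle against control on days 1, 7 and 14, 4 to 8 for cortex against medulla, and 0 to 1 for IBA1 against PanCK. Region by injury ranged from 1 to 5 on day 1 and 0 to 3 on day 14. A group left with a single section took its spread from the others. The members lower by at least 0.5 in the PanCK medulla on day 1 were 33 to 80 with 1 section left out, an alternative chosen after seeing the data.

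Section numbers 1 and 2 stand for the title prefixes E1 and E2, which run across all groups, and the labels state no pairing by them. Over the 21 pairs of groups the differences between sections 1 and 2 had correlations of -0.55 to 0.72 in PanCK and -0.10 to 0.27 in IBA1. In PanCK all pairs with control were below 0, and the pairs of injured groups ran from 0.17 to 0.72. The same-number sections went together on average in 6 of 7 groups in PanCK and 5 in IBA1. With the number as a replicate block the IBA1 vehicle against control count on day 1 was 2, and no other count moved by over 1.5 times. Without the section as a block, IBA1 against PanCK gave 0.

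The selection itself moved with its settings. Of the 100 members 55 were still chosen with upper quartile factors, 60 with changes taken in the cortex alone, 61 with both regions weighted equally, and 50 to 98 with 1 section left out, the lowest without control section 1. Depth limits the IBA1 readings by region, where the median member had 2 to 40 counts in a medullary sum, and 2 sections per group limit every comparison.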
